A study of Homo sapiens with 8 samples.

Results

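The genes described here encode haematopoietic cytokine receptors and the proteins that carry or restrain their signal: EPOR, IL3RA, CSF2RA, CSF2RB, IL6ST, JAK2, TYK2 and SH2B3. They were taken by gene symbol from the deposited gene tables, and all 8 were found among 60754 genes, in 10 entries. IL3RA and CSF2RA lie in the pseudoautosomal region shared by the X and Y chromosomes and therefore have 2 entries each, with equal shares of the reads. In GENCODE on GRCh38, EPOR (11377205 to 11384342) and TYK2 (10350529 to 10380676) lie on chromosome 19, JAK2 on chromosome 9 (4984390 to 5128183), SH2B3 on chromosome 12 (111405948 to 111451623), IL6ST on chromosome 5 (55935095 to 55994993) and CSF2RB on chromosome 22 (36913628 to 36940449). The samples were MEG-01 cells, an established human megakaryoblast line from a chronic myeloid leukaemia in blast crisis, in 4 groups of 2 libraries each. PMA plus Ceefourin 2 cells received 100 nM phorbol 12-myristate 13-acetate (PMA) with 20 µM Ceefourin 2 for 48 h, and PMA cells received 100 nM PMA alone for 48 h. Ceefourin 2 cells received that compound without PMA for 48 h, at a dose that the labels leave out. Untreated cells received neither agent, and the labels give no culture time for them. PMA, a phorbol ester, switches on protein kinase C, and such lines then take on megakaryocytic features. Ceefourin 2 is an inhibitor of the transporter ABCC4. All groups are the same leukaemia line, and nothing in the labels says that 2 libraries of a group came from separate cultures, so the p-values measure the spread between libraries, which may be technical.

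Receptors of this family have no kinase of their own. A ligand brings receptor chains together, the Janus kinases bound to their inner parts (JAK2 and TYK2 among them) phosphorylate each other and the receptor, and STAT transcription factors are recruited and activated. EPOR is the erythropoietin receptor, IL3RA and CSF2RA are the ligand-binding chains for interleukin 3 and GM-CSF, and both pair with the shared signalling chain CSF2RB. IL6ST, also called gp130, is the shared signalling chain for interleukin 6, oncostatin M, leukaemia inhibitory factor and their relatives. SH2B3, also called LNK, is an adaptor that restrains JAK2 signalling in blood stem cells, megakaryocytes and erythroid precursors.

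Against untreated cells, PMA raised the transcripts of the signalling chains, both kinases and the SH2B3 adaptor, and not that of EPOR. Of the 7 genes that passed the filter on low counts, 6 were higher and 0 were lower in PMA than in untreated cells, at an adjusted p below 0.05 in edgeR's quasi-likelihood test. Among all 17314 tested genes 27.9% were higher and 25.7% were lower in that comparison, so a call alone was common and the sizes matter more. The rises ran from 1.35-fold for TYK2 to 4.52-fold for IL6ST, and to 9.60-fold for IL3RA. IL3RA passed the filter through the libraries with PMA alone, which makes a difference in its favour a condition of being tested, so its call supports nothing. With Ceefourin 2 present in both arms, all 7 tested genes were higher in PMA plus Ceefourin 2 than in Ceefourin 2 cells. The 7 include IL3RA, whose call supports nothing here either. Among all genes 28% were higher and 25.6% were lower. Adding Ceefourin 2 to PMA gave 0 calls among the 7, against 0.918% higher and 0.913% lower among all genes. Ceefourin 2 alone against untreated cells also gave 0 calls, against 0.959% higher and 0.722% lower. The interaction of the 2 agents gave 0 calls, against 0.0116% higher and 0% lower. At an unadjusted p below 0.05 in edgeR, 2, 4 and 1 of the 7 genes stood out in the last 3 comparisons, against 13.7%, 13.6% and 7.13% of all genes. The DESeq2 Wald test called 0, 2 and 0 of the 7, against 4.61%, 4.84% and 1.2% of all genes. Values per library follow in CPM, the read count scaled to library size, as in the tests, and in TPM, which is scaled to transcript length as well.

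Libraries held between 44430292 and 89950886 expected counts. Transcripts of the mitochondrial genome made up 8.32% and 4.94% of all counts in PMA plus Ceefourin 2, 9.61% and 4.53% in PMA, 2.77% and 3.11% in Ceefourin 2 and 2.55% and 3.94% in untreated libraries. The share thus moved with PMA and with its first replicates, and its part in the results was not tested. The megakaryocyte genes summed to between 1075 and 1143 TPM in PMA plus Ceefourin 2, 1010 and 1101 in PMA, 367 and 434 in Ceefourin 2 and 315 and 324 TPM in untreated libraries. ITGA2B, ITGB3, GP1BA and GP9 rose after PMA, whereas the platelet factor gene PF4 was at or near 0 throughout. Of 5 erythroid genes, 4 fell after PMA and the fetal globin gene HBG2 rose. The erythroid sum, nearly all HBG2, lay between 25507 and 32430 TPM in PMA plus Ceefourin 2, 30841 and 37355 in PMA, 3855 and 4258 in Ceefourin 2 and 8006 and 9086 TPM in untreated libraries. Of 3 fibroblast genes COL1A1 rose, to between 8.85 and 14.6 TPM in PMA against 0.120 TPM in both untreated libraries. It reached the filter level in both libraries of a group only with PMA, so its call is a description. COL1A2 and DCN stayed near 0. Of the 5 monocyte genes LYZ fell, CD14 did not pass, CSF1R passed the filter through the libraries with PMA alone, and the granule genes MPO and ELANE were at or near 0. The monocyte sum was between 21.7 and 23.2 TPM in PMA and 35.3 and 35.4 TPM in untreated libraries. Of 4 lymphoid genes 1, CD79A, was tested and did not pass, and CD3E and MS4A1 had no reads. The part of these marker changes in the receptor values was not tested. In these bulk libraries, a change in the share of differentiated cells and a change in RNA per cell cannot be told apart.

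The promoters of 3 of the genes are shown because their transcripts gave the contrast described below for PMA against untreated cells. There EPOR did not rise and IL6ST rose with the smallest p. IL3RA had the largest fitted fold, from a call that supports nothing. Each window runs from 250 bases before to 50 bases after the RefSeq gene start in build GRCh38.p14, read 5′ to 3′ on the gene's strand, and 7 of the 8 genes had a window. Capitals mark matches, on either strand, to any of 5 short motifs. The STAT motif was searched as TTCNNNGAA and the motif of GATA factors as AGATAA. The motif of the AP-1 dimer was searched as TGANTCA, that of ETS factors as GGAAGT and the GC box as GGGCGG, and none of the matches shown overlapped another. The EPOR window is chr19:11384265-11384564 on the minus strand, the IL6ST window is chr5:55994914-55995213 on the minus strand, and the IL3RA window is chrX:1336535-1336834 on the plus strand.
EPOR: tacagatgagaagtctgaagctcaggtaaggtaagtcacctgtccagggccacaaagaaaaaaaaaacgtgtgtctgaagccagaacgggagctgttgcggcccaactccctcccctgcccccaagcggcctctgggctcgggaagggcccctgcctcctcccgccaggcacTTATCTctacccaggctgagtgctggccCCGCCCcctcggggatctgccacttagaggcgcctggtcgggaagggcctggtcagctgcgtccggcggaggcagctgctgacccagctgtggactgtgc
IL6ST: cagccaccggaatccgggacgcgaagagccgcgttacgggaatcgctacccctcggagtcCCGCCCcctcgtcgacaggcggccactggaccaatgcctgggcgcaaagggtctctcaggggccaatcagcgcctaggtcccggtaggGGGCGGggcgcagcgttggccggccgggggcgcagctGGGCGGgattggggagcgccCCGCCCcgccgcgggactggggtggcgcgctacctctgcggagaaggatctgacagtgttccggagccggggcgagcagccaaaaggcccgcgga
IL3RA: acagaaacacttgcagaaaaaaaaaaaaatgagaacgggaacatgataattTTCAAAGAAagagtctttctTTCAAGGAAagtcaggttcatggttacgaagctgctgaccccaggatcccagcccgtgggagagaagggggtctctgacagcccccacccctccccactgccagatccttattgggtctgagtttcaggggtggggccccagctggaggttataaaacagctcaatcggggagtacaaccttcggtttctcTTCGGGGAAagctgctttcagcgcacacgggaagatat
The EPOR window held 1 GATA match, 78 bases before the start and read as TTATCT on the strand shown, and 1 GC box. The IL6ST window held 4 GC boxes and no match to the other motifs, and 72.7% of its bases were G or C. The IL3RA window held 3 STAT matches, at 199 and 179 bases before and 12 bases after the start, and no match to the others. Among 34789 windows of the same length, 7.66% held the STAT motif, 10.4% the GATA motif, 7.69% the AP-1 motif, 22.8% the ETS motif and 44.9% the GC box. A match describes the letters of the window only.

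Per length, TYK2 and SH2B3 were the most abundant of these transcripts in each group and the alpha chains the least. In PMA plus Ceefourin 2 cells TYK2 and SH2B3 overlapped, at 85.5 ± 7.80 and 84.0 ± 4.79 TPM (SD, n = 2), and in each other group TYK2 was clear of SH2B3. In PMA cells TYK2 stood at 91.7 ± 6.93 TPM and SH2B3 at 68.6 ± 5.69 TPM. IL6ST came next at 30.7 ± 5.49 TPM and CSF2RB at 17.7 ± 3.27 TPM, both clear of JAK2 at 7.58 ± 0.686 and EPOR at 6.86 ± 0.863 TPM. JAK2 and EPOR overlapped there and in PMA plus Ceefourin 2 cells, so their order was not resolved. In untreated cells TYK2 stood at 73.8 ± 5.44 TPM and SH2B3 at 32.1 ± 0.926 TPM. EPOR at 10.3 ± 1.37, CSF2RB at 10.1 ± 0.0990 and IL6ST at 8.73 ± 2.36 TPM followed with overlapping libraries, and the middle of the order thus differed from that in PMA cells. JAK2 averaged 3.78 ± 0.714 TPM, IL3RA 0.130 ± 0.0141 TPM and CSF2RA 0.0200 ± 0.0283 TPM in untreated cells.

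**Figure D1:**
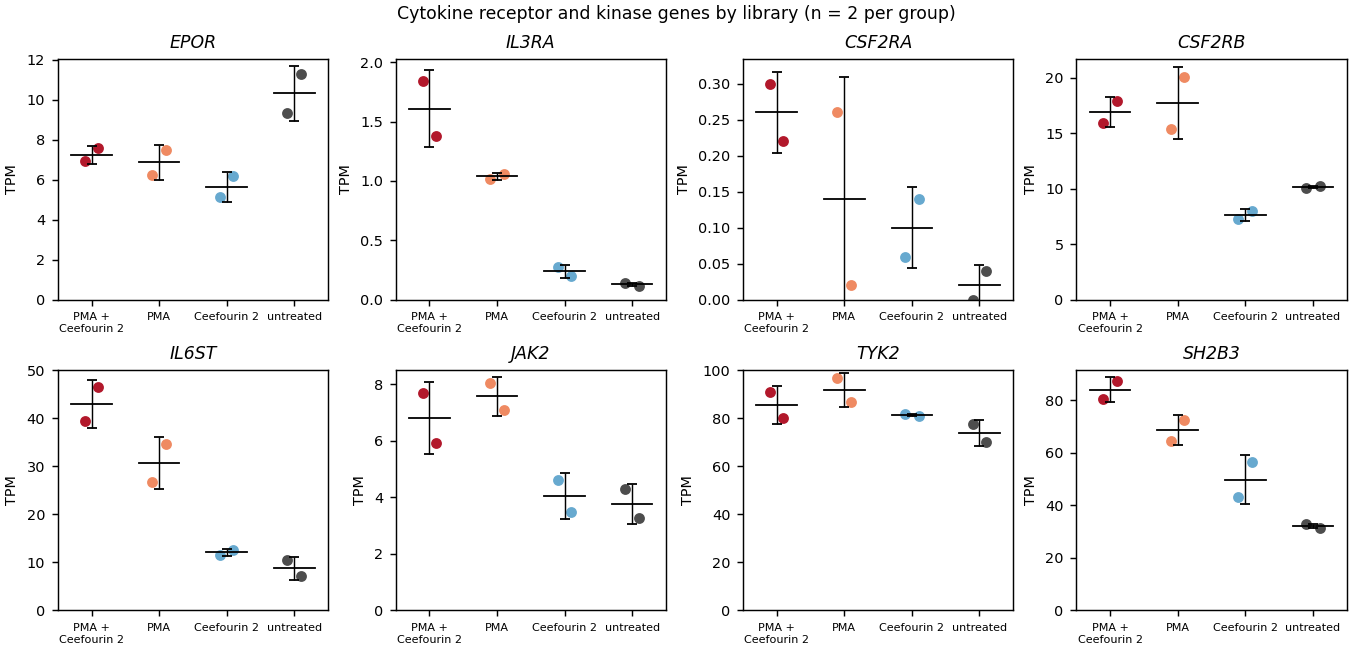
Transcript level (TPM, y axis from 0, a scale of its own in each panel) of the 8 genes in each library of PMA plus Ceefourin 2, PMA, Ceefourin 2 and untreated cells. Points are libraries, horizontal lines are means of 2 libraries and bars are SD; IL6ST, SH2B3 and IL3RA stand higher in both PMA groups, and EPOR is highest in untreated cells.

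EPOR, the receptor through which erythropoietin sustains red cell precursors, did not rise in PMA against untreated cells. It had 11.9 and 14.3 CPM in PMA plus Ceefourin 2, 11.3 and 13.1 CPM in PMA, 7.48 and 9.02 CPM in Ceefourin 2 and 12.6 and 17.4 CPM in untreated libraries. The PMA and untreated libraries overlapped, and both Ceefourin 2 libraries lay below the rest. PMA against untreated cells gave a log2 fold change of -0.29 ± 0.19 (SE), or 0.816-fold with a 95% interval of 0.602 to 1.11 (edgeR adjusted p = 0.228). In TPM the groups did not overlap, at 6.25 and 7.47 TPM in PMA libraries and 9.34 and 11.3 TPM in untreated libraries. On the log2(TPM + 1) scale limma called EPOR lower, by -0.52 (adjusted p = 0.0268), where the median of all genes was itself at -0.14. The erythroid regulator KLF1 fell with PMA at a log2 fold change of -1.56 ± 0.16 (edgeR adjusted p = 0.000128), and 3 other erythroid genes fell with it, whereas the fifth, HBG2, rose by 2.37 ± 0.19 (edgeR adjusted p = 3.5e-05).

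Ceefourin 2 given alone was the condition in which EPOR was lowest. Against untreated cells the log2 fold change was -0.86 ± 0.19, or 0.550-fold (95% interval 0.405 to 0.749), with no overlap between the groups, yet it missed the threshold over all genes (edgeR adjusted p = 0.0790). DESeq2 called this difference, at an adjusted p of 0.00246. It was called in 3 of 19 alternatives in all. With 1 library left out, the log2 fold change ran from -1.05 to -0.59. In PMA plus Ceefourin 2 against Ceefourin 2 cells, EPOR rose 1.59-fold (log2 fold change 0.67 ± 0.19, edgeR adjusted p = 0.0188). This call was lost on the TPM scale, at 0.31 (limma adjusted p = 0.139), and without PMA plus Ceefourin 2 replicate 2 or Ceefourin 2 replicate 1, at 0.53 in both cases (adjusted p = 0.113 and 0.103). The interaction, in which the PMA difference with Ceefourin 2 is set against that without it, was 0.96 ± 0.27 on the log2 scale with an unadjusted p of 0.00750 and an adjusted p of 0.418 in edgeR. EPOR had the smallest interaction p of the 7 tested genes, and it was not called. All 5 erythroid marker genes, haemoglobin genes among them, were called lower in Ceefourin 2 than in untreated cells; their part in the EPOR values was not tested.

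CSF2RB, the shared signalling chain of the interleukin 3, interleukin 5 and GM-CSF receptors, rose with PMA and leaned lower with Ceefourin 2 alone. It had 66.1 and 76.6 CPM in PMA plus Ceefourin 2, 64.0 and 82.2 CPM in PMA, 23.6 and 28.1 CPM in Ceefourin 2 and 33.4 and 37.5 CPM in untreated libraries. Every library with PMA lay above every library without it. PMA cells exceeded untreated cells 2.06-fold (95% interval 1.62 to 2.63, log2 fold change 1.04 ± 0.15, edgeR adjusted p = 0.000733). PMA plus Ceefourin 2 cells exceeded Ceefourin 2 cells 2.76-fold (95% interval 2.16 to 3.53, edgeR adjusted p = 0.000138). Both Ceefourin 2 libraries lay below both untreated libraries, a log2 difference of -0.46 ± 0.15 that did not pass (edgeR adjusted p = 0.225).

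The alpha chains that give CSF2RB its ligand specificity were scarce. IL3RA had 125 and 158 reads over both entries in PMA plus Ceefourin 2, 84 and 68 in PMA, 20 and 14 in Ceefourin 2 and 8 and 9 in untreated libraries. The libraries with PMA did not overlap those without it. In TPM that was 1.84 and 1.38 in PMA plus Ceefourin 2, 1.02 and 1.06 in PMA, 0.280 and 0.200 in Ceefourin 2 and 0.140 and 0.120 in untreated libraries. The fitted rise from 1 entry was 9.60-fold for PMA against untreated cells (95% interval 5.04 to 18.3, log2 fold change 3.26 ± 0.40, edgeR adjusted p = 0.000313). It was 8.07-fold for PMA plus Ceefourin 2 against Ceefourin 2 cells (log2 fold change 3.01 ± 0.35, edgeR adjusted p = 0.000225). The entry fitted held 8.5 expected counts in the untreated group and 17 in the Ceefourin 2 group. Both PMA plus Ceefourin 2 libraries were above both PMA libraries, 1.52-fold with an interval of 0.949 to 2.43, which did not pass (edgeR adjusted p = 0.434).

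CSF2RA, the GM-CSF alpha chain, was at the edge of detection and did not pass the filter. Its reads over both entries numbered 16 and 12 in PMA plus Ceefourin 2, 10 and 1 in PMA, 5 and 4 in Ceefourin 2 and 0 and 3 in untreated libraries. The 2 PMA libraries differed more from each other than the PMA group did from the Ceefourin 2 group. Summed over libraries and scaled, PMA exceeded untreated cells 3.81-fold on 11 against 3 reads, with a 95% counting interval of 1.01 to 21.3. PMA plus Ceefourin 2 exceeded Ceefourin 2 cells 2.98-fold on 28 against 9 reads, with an interval of 1.37 to 7.17. These intervals cover counting error only. With the filter removed, edgeR was fitted to 1 of the 2 entries, which holds an equal share of these reads. It gave CSF2RA adjusted p-values of 0.648 for PMA against untreated and 0.294 for PMA plus Ceefourin 2 against Ceefourin 2 cells. That fit called no change at this depth.

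IL6ST gave the smallest p of the 7 tested genes after PMA. It had 139 and 180 CPM in PMA plus Ceefourin 2, 115 and 128 CPM in PMA, 35.2 and 36.2 CPM in Ceefourin 2 and 26.7 and 27.1 CPM in untreated libraries. The 4 groups did not overlap at all, in that order. PMA cells exceeded untreated cells 4.52-fold (95% interval 3.67 to 5.56, log2 fold change 2.18 ± 0.13, edgeR adjusted p = 9.0e-06). PMA plus Ceefourin 2 cells exceeded Ceefourin 2 cells 4.46-fold (95% interval 3.63 to 5.49, edgeR adjusted p = 1.0e-05). The difference between the 2 PMA effects was -0.02 ± 0.18 on the log2 scale, with an interval of -0.42 to 0.39. Ceefourin 2 went with higher IL6ST in both settings, 1.31-fold on PMA (edgeR adjusted p = 0.203) and 1.33-fold alone (edgeR adjusted p = 0.189), and neither passed. The 2 untreated libraries, close in CPM, stood at 10.4 and 7.06 TPM, because the effective length assigned to IL6ST in them was 85.4% and 117% of its mean over libraries.

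JAK2, the kinase that serves EPOR and CSF2RB, rose with PMA. It had 32.7 and 25.0 CPM in PMA plus Ceefourin 2, 33.3 and 28.0 CPM in PMA, 14.4 and 12.2 CPM in Ceefourin 2 and 12.5 and 11.7 CPM in untreated libraries. The libraries with PMA stood clear of those without, whereas the Ceefourin 2 and untreated libraries overlapped. The rise was 2.54-fold over untreated cells (95% interval 1.96 to 3.30, log2 fold change 1.35 ± 0.16, edgeR adjusted p = 0.000287). Over Ceefourin 2 cells, PMA plus Ceefourin 2 gave 2.16-fold (95% interval 1.67 to 2.80, edgeR adjusted p = 0.000716). Ceefourin 2 on PMA changed JAK2 0.939-fold with an interval of 0.729 to 1.21, which leaves room for a moderate change either way.

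TYK2, the Janus kinase used by interferon, interleukin 12 and gp130 receptors, was abundant and rose least of the 6. It had 164 and 160 CPM in PMA plus Ceefourin 2, 166 and 165 CPM in PMA, 134 and 137 CPM in Ceefourin 2 and 121 and 124 CPM in untreated libraries. Its libraries were tightly grouped and the PMA groups lay above the others. PMA raised it 1.35-fold over untreated cells (95% interval 1.21 to 1.52, log2 fold change 0.44 ± 0.07, edgeR adjusted p = 0.00131). PMA plus Ceefourin 2 exceeded Ceefourin 2 cells 1.19-fold (log2 fold change 0.26 ± 0.07, edgeR adjusted p = 0.0164). In TPM the PMA plus Ceefourin 2 libraries, at 91.0 and 80.0, and the Ceefourin 2 libraries, at 81.6 and 81.1, overlapped. This second rise was lost in 9 of 19 alternatives, among them the TPM scale, where it was 0.07 (limma adjusted p = 0.587), and leaving out any 1 library of either group (edgeR adjusted p between 0.0544 and 0.0830).

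SH2B3, the adaptor that holds back JAK2, rose by about as much as JAK2. It had 375 and 422 CPM in PMA plus Ceefourin 2, 299 and 333 CPM in PMA, 165 and 217 CPM in Ceefourin 2 and 122 and 125 CPM in untreated libraries. As with IL6ST, the 4 groups followed each other without overlap. The rise with PMA was 2.57-fold over untreated cells (95% interval 2.06 to 3.19, log2 fold change 1.36 ± 0.14, edgeR adjusted p = 0.000110). It was 2.09-fold for PMA plus Ceefourin 2 over Ceefourin 2 cells (95% interval 1.68 to 2.59, edgeR adjusted p = 0.000367). Ceefourin 2 alone gave 1.55-fold over untreated cells (95% interval 1.25 to 1.93), just short of the threshold in edgeR (adjusted p = 0.0668) and called by DESeq2 (adjusted p = 0.000507). This difference was called in 4 of 19 alternatives, DESeq2 among them. With 1 library left out, the log2 fold change ran from 0.43 to 0.83, the largest without Ceefourin 2 replicate 1. On PMA, the added compound gave 1.26-fold (95% interval 1.02 to 1.56, edgeR adjusted p = 0.319). SH2B3 overlaps ATXN2 on the opposite strand; the library kit marks strand, the strand setting of the counting was not stated in the labels, and ATXN2 itself held between 1402 and 2594 counts.

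**Figure D2:**
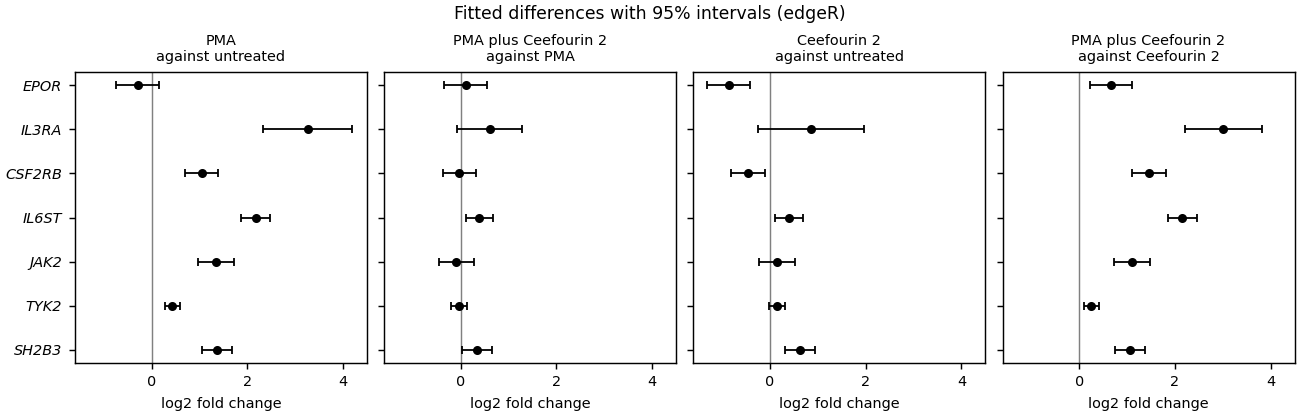
Log2 fold changes (x axis) with 95% intervals for the 7 tested genes (rows) in 4 comparisons (panels), from 1 edgeR fit of 8 libraries. With PMA in the contrast the points lie mostly right of 0. In PMA against untreated cells they run from -0.29 for EPOR to 2.18 for IL6ST, and to 3.26 for IL3RA, whose call supports nothing. On adding Ceefourin 2 to PMA, the intervals of IL6ST and SH2B3 lie above 0, though neither gene was called, and those of the others span 0.

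Around these genes, 104 others of the same pathway were read in 10 groups. Of the 88 tested, 45 were higher and 16 lower in PMA than in untreated cells, against 27.9% and 25.7% of all 17314 genes. The counts by gene group given below for this comparison stand against the same shares. The median log2 fold change was 0.35, and over all genes it was -0.00. IL12RB1, CSF2, IL11 and EBI3 are in the 45 and passed the filter through the libraries with PMA alone. IL20RA, in the 16, passed through those without PMA alone. These calls and that of JAK3 are descriptions. Read in TPM with limma at a pseudocount of 1, 31 of the 88 were higher and 20 lower. On that scale the split among all genes also moved, to 3197 higher and 5831 lower genes against 4838 higher and 4443 lower in edgeR.

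Both remaining Janus kinases rose with PMA. JAK1, which pairs with gp130 chains and with interferon receptors, had 464 and 440 CPM in PMA and 224 and 196 CPM in untreated libraries, a log2 fold change of 1.11 ± 0.09 (edgeR adjusted p = 4.5e-05). JAK3, the partner of the common gamma chain, came to 68 and 79 reads in PMA against 5 and 7 reads in untreated libraries. It reached the filter level in 4 libraries with PMA and 1 without, so its call is a description. Of the 7 STAT genes 5 rose and 1 fell. STAT3, the main effector of gp130, rose by 1.20 ± 0.09 and STAT2 by 1.06 ± 0.10 on the log2 scale (edgeR adjusted p = 2.2e-05 and 8.2e-05). The near-identical pair STAT5A and STAT5B, which act below EPOR and CSF2RB, went opposite ways, at 0.52 ± 0.08 for STAT5A and -0.32 ± 0.09 for STAT5B (edgeR adjusted p = 0.00134 and 0.0140). Reads shared between such similar genes were split by the authors' quantification, so this pair is uncertain. STAT4 had a log2 fold change of -0.39 ± 0.26 and did not pass.

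The feedback inhibitors were divided. Of 8 SOCS and CIS genes 2 rose and 1 fell. SOCS3, which binds gp130 and JAK2 and shuts off their signal, rose by 1.56 ± 0.14 on the log2 scale, with 19.4 and 20.1 CPM in PMA and 7.00 and 6.40 CPM in untreated libraries. SOCS2 fell by -1.13 ± 0.23, with 118 and 91.4 CPM in PMA and 223 and 235 CPM in untreated libraries. SOCS4 rose by 0.36 ± 0.11, although it was -0.11 in TPM without passing, and CISH, at 0.38 ± 0.22, did not pass. Of 12 tested adaptors, ubiquitin ligases and phosphatases 5 rose and 3 fell. CBLB, a ubiquitin ligase that marks activated receptors and kinases for removal, rose by 3.71 ± 0.21 and its relative CBL by 1.19 ± 0.14 on the log2 scale. PTPN2, a phosphatase of JAK1 and STAT proteins, fell by -0.54 ± 0.08 (edgeR adjusted p = 0.000935), and PIAS3, an inhibitor of STAT3, rose by 0.60 ± 0.11.

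Among the receptor chains that partner gp130 or are built like it, 5 of 8 rose and 1 fell. OSMR, which with gp130 forms the oncostatin M receptor, had 5.95 and 6.94 CPM in PMA and 0.935 and 0.768 CPM in untreated libraries, a log2 fold change of 2.92 ± 0.21 (edgeR adjusted p = 2.3e-05). LIFR, the partner for leukaemia inhibitory factor, rose by 0.85 ± 0.30 on the log2 scale, close to the threshold (edgeR adjusted p = 0.0426). IL11RA rose by 1.22 ± 0.28 (edgeR adjusted p = 0.00669). IL6R itself was level, at 7.32 and 6.92 CPM in PMA and 7.96 and 5.95 CPM in untreated libraries. IL12RB2 fell by -1.92 ± 0.17. IL12RB1 passed the filter through the PMA libraries alone, and without it 4 of 7 of these chains rose and 1 fell. Of 11 other tested class I receptors 8 rose and 2 fell. IL7R rose by 4.93 ± 0.51 and IL2RB by 3.68 ± 0.46, from few reads in untreated cells, and the more abundant IL4R rose by 0.83 ± 0.08 and IL15RA by 1.31 ± 0.15. LEPR, the leptin receptor, fell by -1.32 ± 0.10, and averaged 485 CPM in untreated cells. Of 8 tested class II and interferon receptors 3 rose and 1 fell, with IL10RB at 0.62 ± 0.14, IFNGR2 at 0.34 ± 0.10 and IL10RA at 0.57 ± 0.19. IFNGR2 was called in 11 of 19 alternatives, not in TPM and not without any 1 library of either group, and IL10RA in 13 of 19. IL10RB was lost in TPM alone (limma adjusted p up to 0.0561). The gene that fell, IL20RA, passed the filter through the libraries without PMA alone, so its call is a description, while IFNAR1, IFNAR2 and IFNGR1 did not pass.

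The ligands showed the widest changes of the pathway. Of 15 ligand genes 8 were tested, and CSF2, IL11 and EBI3 among them passed the filter through the libraries with PMA alone, so their calls are descriptions. CSF2, which encodes GM-CSF, had 12.0 and 16.5 CPM in PMA plus Ceefourin 2, 15.2 and 19.7 CPM in PMA, 0.0935 and 0.129 CPM in Ceefourin 2 and 0.0623 and 0.0980 CPM in untreated libraries. The untreated libraries held 3 and 6 reads of it. IL6 had 62.7 and 66.2 CPM in PMA plus Ceefourin 2, 50.7 and 56.7 CPM in PMA, 1.51 and 3.56 CPM in Ceefourin 2 and 0.686 and 1.03 CPM in untreated libraries. PMA raised IL6 by 5.95 ± 0.39 on the log2 scale (edgeR adjusted p = 1.3e-05), and CLCF1, a ligand that signals through gp130 and LIFR, by 4.40 ± 0.51. OSM, encoding oncostatin M, ran the other way, at 4.24 and 3.39 CPM in PMA and 21.2 and 21.4 CPM in untreated libraries, a log2 fold change of -2.47 ± 0.21 (edgeR adjusted p = 4.9e-05). The 2 transcripts of the oncostatin M pair thus moved in opposite directions, OSMR up and OSM down. EPO, IL3, IL5 and CSF3 did not pass the filter, and no library held a read of IL3 or IL5.

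**Figure D3:**
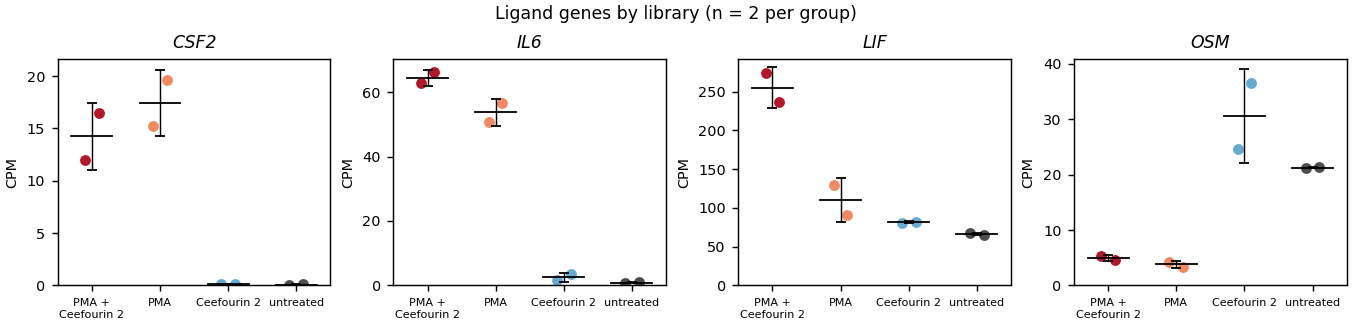
Level (CPM, y axis from 0, a scale of its own in each panel) of 4 ligand genes in each library of PMA plus Ceefourin 2, PMA, Ceefourin 2 and untreated cells, with means and SD of 2 libraries. CSF2 and IL6 are near 0 without PMA, OSM is lower with PMA, and LIF is highest in PMA plus Ceefourin 2, at 274 and 237 CPM.

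Of 13 tested adaptors below the receptors 4 rose and 3 fell. SHC1, which links receptors to the Ras pathway, rose by 1.91 ± 0.08 and PIK3R1, the regulatory subunit of phosphoinositide 3-kinase, by 1.95 ± 0.20 on the log2 scale. The adaptor STAM2 rose by 0.55 ± 0.09, while the Src-family kinase LYN fell by -0.69 ± 0.09. Of 15 genes known as STAT targets 6 rose and 5 fell, so the group as a whole had no single direction. The survival genes MCL1 and BCL2L1 rose by 1.37 ± 0.08 and 1.29 ± 0.07, the kinase gene PIM2 by 1.20 ± 0.08 and JUNB by 2.58 ± 0.16 on the log2 scale. MYC fell by -1.09 ± 0.09 and ID1 by -1.21 ± 0.11. OSM, CISH, SOCS2 and SOCS3 belong to this group and to an earlier one.

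**Figure D4:**
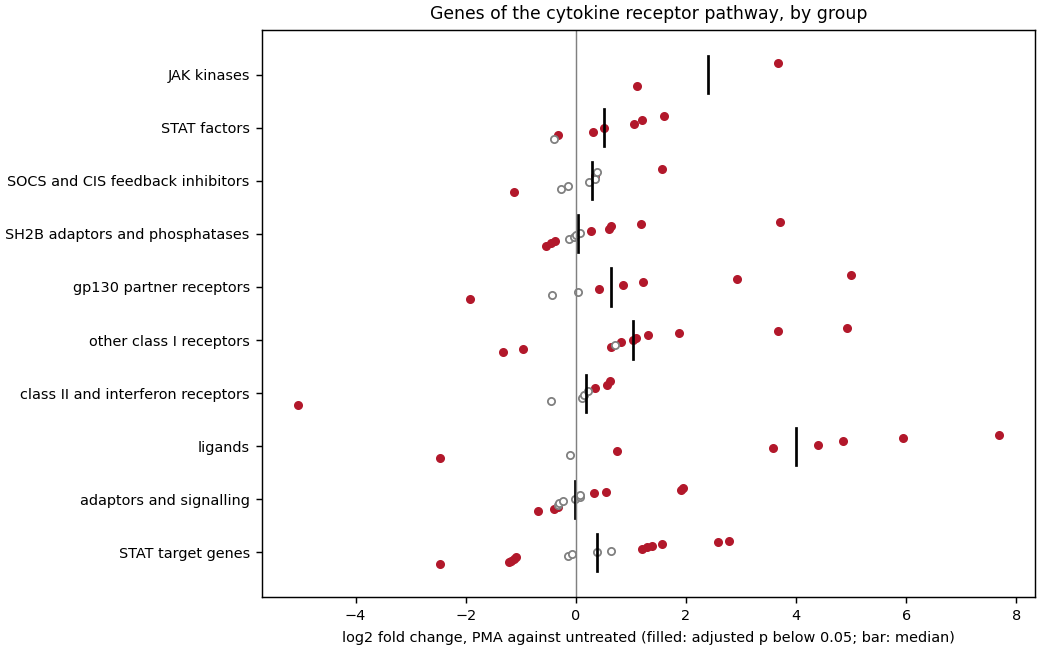
Log2 fold change in PMA against untreated cells (x axis) of each tested pathway gene, by group (rows); filled points passed an adjusted p below 0.05, and vertical bars are group medians. The ligands spread widest, from -2.47 for OSM to 5.95 for IL6, and to 7.69 for CSF2. The filled points of CSF2, IL11, EBI3, IL12RB1, JAK3 and IL20RA are descriptions, as stated in the text. The STAT targets lie on both sides of 0.

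PMA plus Ceefourin 2 cells were also set against Ceefourin 2 cells, with the compound in both arms. There 48 of the 88 pathway genes were higher and 14 lower, against 28% and 25.6% of all genes. The median log2 fold change was 0.46, against 0.02 over all genes. Calls of JAK3, IL12RB1, CSF2, IL11, EBI3 and IL20RA are in these counts as descriptions only. In TPM 38 of the 88 were higher and 22 lower, where all genes split into 3016 higher and 5992 lower. JAK1 rose by 1.38 ± 0.09, STAT3 by 1.04 ± 0.09, STAT6 by 0.59 ± 0.07 and SOCS3 by 1.52 ± 0.14 on the log2 scale. Of the receptors, OSMR rose by 2.22 ± 0.19, IL2RG, the common gamma chain, by 1.64 ± 0.15, IL4R by 0.98 ± 0.08, IFNGR2 by 1.09 ± 0.10 and IL10RA by 1.13 ± 0.19, and IL12RB2 fell by -1.67 ± 0.17. IL6 rose by 4.67 ± 0.34, CBLB by 3.90 ± 0.21, SHC1 by 1.78 ± 0.08, MCL1 by 1.51 ± 0.08 and BCL2L1 by 1.24 ± 0.07. PTPN2 fell by -0.65 ± 0.08 and LYN by -0.75 ± 0.09 (edgeR adjusted p at most 0.00137 for each gene named here). SOCS5 rose by 0.38 ± 0.10 (edgeR adjusted p = 0.0126), a call lost in 5 of 19 alternatives.

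Adding Ceefourin 2 to PMA changed 7 of the 88 tested pathway genes, 4 higher and 3 lower. Among all genes 0.918% were higher and 0.913% lower. The median log2 fold change was 0.16, against 0.00 over all genes. LIF, a ligand of gp130, had 274 and 237 CPM in PMA plus Ceefourin 2 and 130 and 90.6 CPM in PMA libraries, a log2 fold change of 1.21 ± 0.16 (edgeR adjusted p = 0.0148). SOCS3 rose by 0.93 ± 0.14, with 38.6 and 36.5 CPM in PMA plus Ceefourin 2 and 19.4 and 20.1 CPM in PMA libraries (edgeR adjusted p = 0.0195). IL4R, the interleukin 4 receptor, rose by 0.80 ± 0.08 and MCL1 by 0.51 ± 0.08 (edgeR adjusted p = 0.00453 and 0.0216). Lower were PTPN6, the phosphatase SHP-1 that silences cytokine receptors, PTPRC, the CD45 phosphatase, and PIK3R1. PTPN6 had 60.9 and 55.3 CPM in PMA plus Ceefourin 2 and 107 and 110 CPM in PMA libraries, a log2 fold change of -0.90 ± 0.12 (edgeR adjusted p = 0.0151). PTPRC fell by -0.75 ± 0.13 and PIK3R1 by -1.14 ± 0.19 (edgeR adjusted p = 0.0349 and 0.0299). OSMR at 0.90 ± 0.18 and JAK1 at 0.39 ± 0.09 stood above their PMA libraries without passing (edgeR adjusted p = 0.0552 and 0.0901), as did IL10RA at 0.85 ± 0.19 (0.0692). STAT4, at 0.67 ± 0.26, had the smallest p of the STAT genes and did not pass. Whichever library of PMA or PMA plus Ceefourin 2 was left out, fewer of the 88 genes were called. None of the 7 calls was kept without PMA plus Ceefourin 2 replicate 1. Directions held in all 19 alternatives for these 7 genes.

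Ceefourin 2 given alone changed 6 of the 88, 5 higher and 1 lower, against 0.959% higher and 0.722% lower among all genes. OSMR had 2.20 and 2.95 CPM in Ceefourin 2 and 0.935 and 0.768 CPM in untreated libraries, a log2 fold change of 1.60 ± 0.21 (edgeR adjusted p = 0.0142). SOCS3 had 14.8 and 11.4 CPM in Ceefourin 2 and 7.00 and 6.40 CPM in untreated libraries, or 0.97 ± 0.14 on the log2 scale (edgeR adjusted p = 0.0208). IL4R rose by 0.65 ± 0.08, the docking adaptor GAB2 by 0.89 ± 0.14 and PIM2 by 0.53 ± 0.08, and the phosphatase gene PTPN1 fell by -0.42 ± 0.08 (edgeR adjusted p between 0.0119 and 0.0463). IL6 stood at 1.54 ± 0.39, JAK3 at 0.73 ± 0.55, STAT6 at -0.34 ± 0.07 and IFNGR2 at -0.34 ± 0.10 on the log2 scale, and none of them passed. Leaving out either untreated library ended all 6 calls, with 30 and 36 of all genes called in place of 291. SOCS3 and IL4R were called in the Ceefourin 2 comparison with PMA and in the one without. These comparisons share no library but come from 1 fit over the 8 libraries, so they are not independent. The share of all genes called in both was not counted. The interaction called 0 of the 88 genes, and 2 of all 17314. ID1 at 0.95 ± 0.16, IFNGR2 at 0.75 ± 0.14 and PTPN1 at 0.56 ± 0.11 on the log2 scale had the smallest p of their groups and did not pass (edgeR adjusted p = 0.145, 0.167 and 0.209). DESeq2 called 5 of the 88 there, and 207 of all genes.

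**Figure D5:**
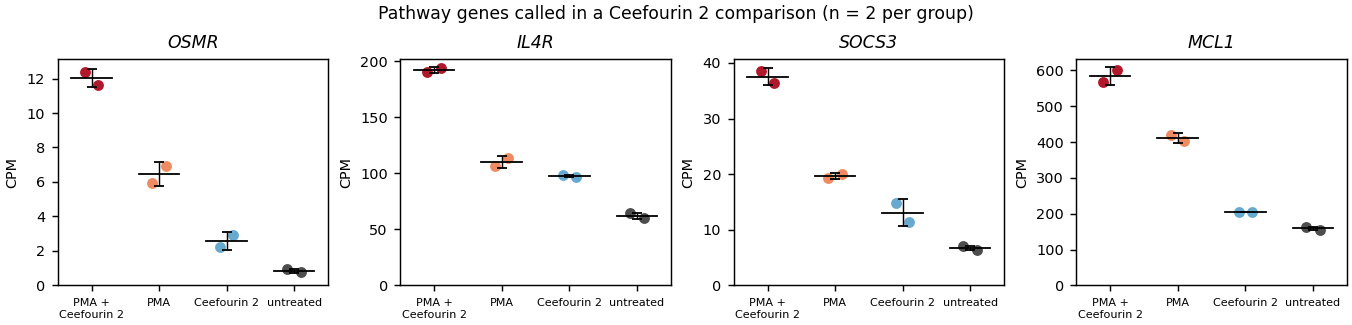
Level (CPM, y axis from 0, a scale of its own in each panel) of 4 pathway genes in each library of PMA plus Ceefourin 2, PMA, Ceefourin 2 and untreated cells, with means and SD of 2 libraries. SOCS3 stands at 38.6 and 36.5 CPM in PMA plus Ceefourin 2 and at 19.4 and 20.1 CPM in PMA libraries.

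By pattern over the 8 libraries, EPOR stood apart from the rest. Its Pearson r of log2 CPM with the other 6 tested genes lay between 0.02 and 0.54, and those 6 had r between 0.81 and 0.98 with one another. The libraries form 2 clusters, with and without PMA, which fix most of such values, so they are descriptions. Among 10532 genes of at least 5 CPM, the patterns most like EPOR were those of CLPX at 0.97 and MTHFS at 0.95. For CSF2RB they were ZNF274 and NIPSNAP3A, for JAK2 CLBA1 and SKAP2, for TYK2 AC080038.1 and CLDN12, for SH2B3 MCFD2 and BHLHE40, and for IL3RA AC112253.1 and REEP3, each at an r of at least 0.99.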

How the data were processed

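Stranded poly(A) libraries of MEG-01 cells were read from both ends. Per the submitters' processing notes, STAR 2.7, RSEM 1.3.1 and hg38 were used; no source read here gave the annotation release. The authors deposited RSEM expected counts per gene, not normalized, and TPM, which the authors scaled by effective length and to the same total per library. The 8 genes, the pathway and marker lists and the tests were chosen with earlier results of these data known.

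After rounding, counts were tested with edgeR 4.0.16 under R 4.3.3 (filterByExpr, whose minimum count of 10 came to 0.172 CPM; TMM factors 0.920 to 1.08; 1 quasi-likelihood fit over the 8 libraries, each group having its own mean; 4 residual and 3.95 prior degrees of freedom). P-values were Benjamini-Hochberg adjusted over 17314 genes per contrast, and genes below 0.05 were called; rose, fell, higher and lower calls refer to these. Standard errors and 95% intervals come from that fit, and SDs are of 2 libraries. For IL3RA, and for CSF2RA with the filter removed, 1 of 2 entries was fitted. The scripts were tested on simulated counts. Alternatives used DESeq2 1.42.0, limma 3.58.1 on log2(TPM + 1) and log2(TPM + 0.1), other filters and scalings, summed entries and left-out libraries. Named pathway genes were up to 4 called genes per list with the smallest p (2 in Ceefourin 2 alone, PMA plus Ceefourin 2 against Ceefourin 2, and the interaction), or the smallest p where none passed; others named beside them (IL6R, LIFR, IL2RB, CISH, ID1, MYC, IFNAR1, IFNAR2, IFNGR1, STAT5B and the ligands) were chosen after their values were seen. Sequences are from RefSeq. Positions and overlaps come from GENCODE release 29, in which 58587 of 60754 identifiers matched. Some genes that this rule names are not reported here.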

Additional observations from a re-analysis of the deposited data

How the results depend on the processing

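Of the 6 members called higher in PMA than in untreated cells, all but IL3RA were called in all 19 alternatives. Between 32.8% and 64.4% of all genes were called in those alternatives. A minimum of 1 CPM in 2 libraries removed IL3RA, and its calls in the others support nothing, as stated above. In PMA plus Ceefourin 2 against PMA the count of 0 called members became 1 with no filter (4.04% of all genes called) and 2 with a replicate block (8.56%). In Ceefourin 2 against untreated it became 4 with no filter (3.92%), 2 with DESeq2's Wald test (4.84%), 4 with the replicate block (8.26%), and 0 to 1 when 1 library at a time was left out. The interaction gave 1 with no filter (1.38%) and 1 with the replicate block (1.43%). The cause of these shifts was not tested. Same-numbered libraries had correlated deviations (r between 0.14 and 0.36 over 6 pairs of groups), but the labels do not say what the numbers mark and only 2 exist, so they were not treated as pairs. With the block, 7 members were called in PMA against untreated cells (EPOR added, lower, at -0.28), where 64.4% of all genes were called, and 7 in PMA plus Ceefourin 2 against Ceefourin 2, where 63.6% were. Without both first replicates of the PMA arms, 6 were called in PMA against untreated cells, IL3RA among them, and 35.7% of all genes.

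Among the members, signs turned only in differences that were not called. In PMA plus Ceefourin 2 against PMA, with 1 library left out, EPOR ran from -0.042 to 0.23 (-0.0038 without PMA replicate 1), JAK2 from -0.29 to 0.093 (0.040 without PMA replicate 1) and CSF2RB from -0.20 to 0.16 (0.070 without PMA plus Ceefourin 2 replicate 1). In the interaction, limma on TPM gave IL3RA 0.17 and 0.12 and IL6ST 0.035 and 0.0058; IL6ST ran from -0.22 to 0.15 with 1 library left out, was 0.062 without PMA replicate 2 and was 0.080 without both first replicates of the PMA arms.

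Over all genes, 317 calls in PMA plus Ceefourin 2 against PMA became between 1 and 1482, and 291 in Ceefourin 2 against untreated became between 30 and 1430. The interaction's 2 calls became between 0 and 414. The number of reads limits IL3RA and CSF2RA, and 2 libraries per group limit the rest.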
